A study of Mus musculus with 8 samples.

Results

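Antibody heavy chain variable segments (gene symbols beginning with Ighv and a digit) were followed in RNA from mouse bone marrow macrophages and plasma cells. All 183 such symbols found in both count tables were taken as members, out of 47643 gene identifiers in the macrophage table and 52458 symbols in the plasma cell table. GENCODE M21, an annotation of the GRCm38 mouse genome, types 113 of them as functional variable genes and 70 as pseudogenes. They stand on the minus strand of chromosome 12 between 113572927 and 116010093. The symbols were taken by name and not by any measured value, though the set was chosen with earlier results of these data known.

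A heavy chain variable region is made by joining 1 variable (V), 1 diversity (D) and 1 joining (J) segment in a developing B cell, so a B cell or plasma cell and its descendants carry mainly a single productive joined segment. Antibody RNA is made by B lineage cells and above all by plasma cells, which secrete antibody. The share of heavy chain reads taken by each V segment therefore describes the mix of antibody transcripts in a sample: a polyclonal population spreads its reads over many segments, and an expanded clone puts most of them on a single one. Macrophages do not rearrange this locus.

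All mice were wild type (WT) of strain B6. Tumour-associated macrophages (TAM), sorted as F4/80 high and CD11b low, came from mice whose tibia had been injected with Vk*MYC myeloma, a transplantable plasma cell tumour whose cells carry green fluorescent protein (GFP) and had been purified by CD138. TAM positive for GFP are labelled as touching myeloma cells (TAM-IC, n = 2) and TAM negative for GFP as without contact (TAM-NIC, n = 2). Both TAM groups are numbered by mouse 1 and mouse 2, used here as replicate 1 and replicate 2. Macrophages of naive mice (n = 2) carried no tumour, and no treatment was given in any group. Another 2 libraries are labelled as plasma cells. The series names myeloma cells (GFP high) and polyclonal plasma cells of naive mice, but the labels do not say which library is which, so each plasma cell library is described alone. The mice's ages, the number of animals per sample and the V segment of the injected myeloma cells are not given in the sources used for this text. P-values therefore measure only the spread between these samples, which may in part be technical.

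Library totals ran from 28887725 to 46873056 counts in macrophages, and were 81792139 and 38343783 in plasma cells. All 10 macrophage markers on the list used here, such as Adgre1 (F4/80) and Csf1r, were detected in every library, with summed levels of 16881 to 30334 CPM (counts per 1000000 counts of the library) in macrophages against 354 and 431 CPM in plasma cells. All 10 plasma cell markers, such as Sdc1 (CD138) and Jchain, were also detected in every macrophage library. Their sum was 850 and 5784 CPM in TAM-NIC, 737 and 710 in TAM-IC, 768 and 923 in the naive libraries, and 64689 and 86420 in plasma cells (replicate 1 first, then replicate 2, as throughout). Most of the TAM-IC sum came from Xbp1, at 517 and 566 CPM against 332 and 389 in naive macrophages. Single markers went either way. Jchain stood at 23.5 and 54.6 CPM in TAM-IC against 335 and 450 in naive macrophages, and Mzb1 was also lower, while Slamf7 was higher. All immunoglobulin genes together took 9.13% of the counts of TAM-NIC replicate 2, 0.166% to 0.632% of the other macrophage libraries, and 67.3% and 70.4% of the plasma cell libraries. TAM-NIC replicate 2 thus stood apart from the other macrophage libraries, and group comparisons that rest on it are also given without it.

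The segments that led a library are shown by the last 300 bases of their V exon, the exon that encodes most of the variable domain, from GENCODE M21 transcripts on GRCm38, 5′ to 3′ on the minus strand. Ighv1-26, the leading segment of 3 of the 6 macrophage libraries, lies at chr12:114788372-114788671. Capitals mark the codon of the last cysteine, which ends the framework before the joint with D and J.
Ighv1-26: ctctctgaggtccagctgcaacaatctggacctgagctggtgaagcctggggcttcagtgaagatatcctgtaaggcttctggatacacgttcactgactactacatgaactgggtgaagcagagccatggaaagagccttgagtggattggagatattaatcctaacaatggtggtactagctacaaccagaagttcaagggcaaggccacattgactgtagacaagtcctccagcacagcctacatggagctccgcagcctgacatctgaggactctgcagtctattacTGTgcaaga
Ighv1-22, which led naive replicate 2, lies at chr12:114746273-114746572, and Ighv1-39, second in TAM-NIC replicate 2, at chr12:114914599-114914898. Both are shown with capitals at the bases that differ from Ighv1-26, at 11 and 23 positions.
Ighv1-22: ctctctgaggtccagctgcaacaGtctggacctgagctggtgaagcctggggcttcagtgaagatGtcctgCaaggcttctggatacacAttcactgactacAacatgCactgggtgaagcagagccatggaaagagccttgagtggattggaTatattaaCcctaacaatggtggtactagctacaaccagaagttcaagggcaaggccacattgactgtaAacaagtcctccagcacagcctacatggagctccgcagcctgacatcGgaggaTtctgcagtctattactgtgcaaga
Ighv1-39: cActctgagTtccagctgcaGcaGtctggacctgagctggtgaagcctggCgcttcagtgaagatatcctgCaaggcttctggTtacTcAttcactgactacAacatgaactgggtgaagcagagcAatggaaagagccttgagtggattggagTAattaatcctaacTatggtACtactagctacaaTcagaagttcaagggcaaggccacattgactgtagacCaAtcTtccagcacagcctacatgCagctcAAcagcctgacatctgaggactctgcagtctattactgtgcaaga
The other leading segments come from other sequence subgroups, again with the last cysteine codon in capitals. Ighv5-6 (chr12:113625506-113625805) led TAM-NIC replicate 1. Ighv8-12 (chr12:115647945-115648244) led TAM-IC replicate 1. Ighv11-2 (chr12:114048241-114048540) and Ighv9-3 (chr12:114140692-114140991) led plasma cell replicates 1 and 2.
Ighv5-6: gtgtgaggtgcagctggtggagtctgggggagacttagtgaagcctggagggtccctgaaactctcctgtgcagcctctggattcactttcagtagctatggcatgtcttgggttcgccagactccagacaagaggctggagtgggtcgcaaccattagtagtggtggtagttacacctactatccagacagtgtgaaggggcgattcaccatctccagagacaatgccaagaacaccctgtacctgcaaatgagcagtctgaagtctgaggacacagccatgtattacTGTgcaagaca
Ighv8-12: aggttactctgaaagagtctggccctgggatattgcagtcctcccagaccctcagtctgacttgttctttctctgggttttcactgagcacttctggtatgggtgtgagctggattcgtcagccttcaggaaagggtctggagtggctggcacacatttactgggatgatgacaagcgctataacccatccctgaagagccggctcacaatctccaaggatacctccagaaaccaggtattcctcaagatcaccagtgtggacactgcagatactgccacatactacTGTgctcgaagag
Ighv11-2: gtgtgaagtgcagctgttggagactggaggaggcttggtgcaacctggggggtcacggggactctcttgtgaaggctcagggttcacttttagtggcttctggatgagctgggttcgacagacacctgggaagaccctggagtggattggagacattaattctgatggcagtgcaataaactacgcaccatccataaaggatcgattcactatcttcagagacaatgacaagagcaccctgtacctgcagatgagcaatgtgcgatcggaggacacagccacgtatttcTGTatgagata
Ighv9-3: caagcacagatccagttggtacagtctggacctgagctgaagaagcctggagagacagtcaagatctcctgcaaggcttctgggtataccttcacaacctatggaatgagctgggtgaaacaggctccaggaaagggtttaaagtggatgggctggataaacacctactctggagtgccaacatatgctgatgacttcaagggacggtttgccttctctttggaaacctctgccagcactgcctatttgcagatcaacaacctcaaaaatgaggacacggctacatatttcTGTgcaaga
Many segments are close copies. Of the 113 segments with a V exon of at least 280 bases, 57 had another at 95% identity or more, and the median identity to the nearest was 95.1%. The V exons of Ighv1-62-2 and Ighv1-71 were identical, and these segments held 0 to 2 counts in each macrophage library. The rule by which reads shared between such copies were counted is not stated in any source used here, so the split between close segments is uncertain.

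Summed over all segments, Ighv RNA was lowest in TAM-IC. The sum was 42.7 and 39.4 CPM there (1898 and 1658 counts), 192 and 270 CPM in naive macrophages (8992 and 7788 counts) and 109 and 2441 CPM in TAM-NIC (4490 and 75796 counts). The plasma cell libraries held 32288 and 29719 CPM (2640940 and 1139526 counts). Both TAM-IC libraries lay below every other library, while the 2 libraries of TAM-NIC fell on either side of the naive pair. In bulk RNA, fewer cells of a type and less RNA per cell cannot be told apart.

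The group means were 41.0 ± 2.34 CPM in TAM-IC, 1275 ± 1649 in TAM-NIC and 231 ± 55.0 in naive macrophages (SD, n = 2 each). The log2 ratio of means was -4.96 for TAM-IC over TAM-NIC, and -2.49 over naive (two-sided exact permutation p = 0.333 for each, on the difference of mean log2 CPM, the smallest p that 2 against 2 allows). Without TAM-NIC replicate 2 the first of these was -1.40, and without Ighv1-26 in the sum it was -2.71. For TAM-NIC over naive it was 2.47 (exact permutation p = 1.0, again on mean log2 CPM), and it turned to -1.09 without TAM-NIC replicate 2 and to -0.25 when Ighv1-26 was left out of the sum.

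**Figure D1:**
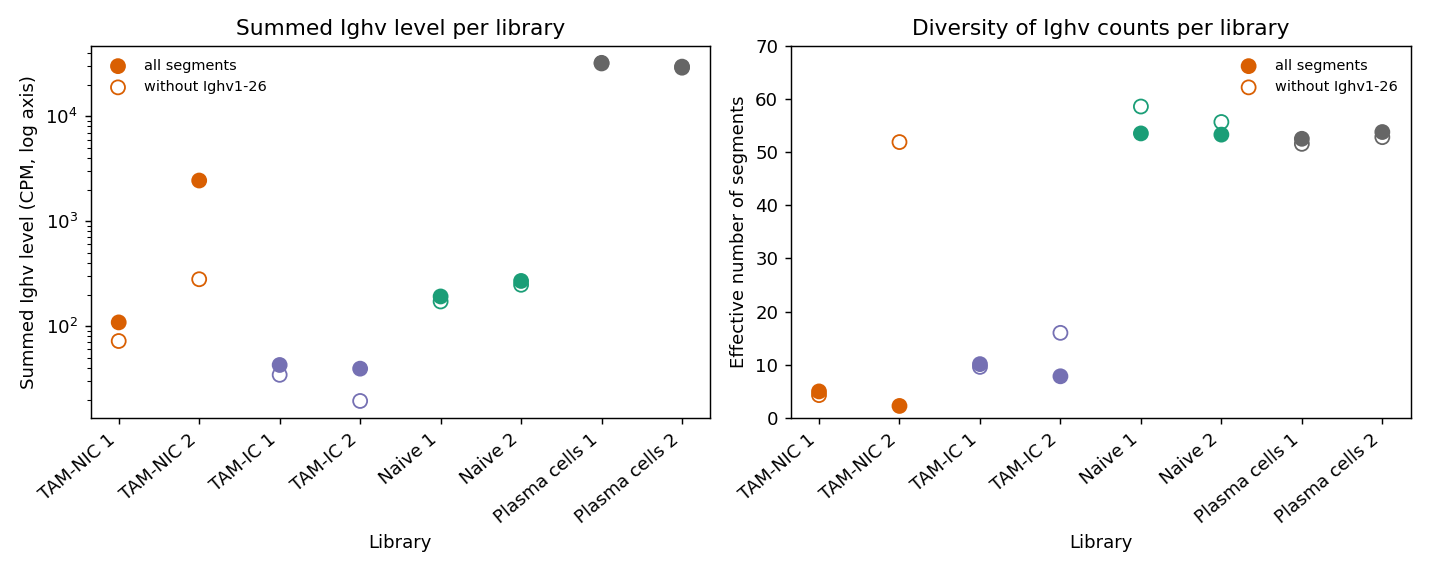
Left, summed Ighv level per library in CPM on a log axis. Right, effective number of segments per library. Filled points use all segments and open points leave out Ighv1-26, with 1 point per library and colours for the 4 groups. The naive and plasma cell libraries sit at 52.5 to 53.8 effective segments and the 4 TAM libraries at 2.25 to 10.1, and TAM-NIC replicate 2 moves to 51.9 without Ighv1-26.

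Naive macrophage libraries and plasma cell libraries spread their Ighv counts over many segments, and TAM libraries over few. The effective number of segments, the exponential of the Shannon entropy of the shares, is the number of equally used segments that would give the same diversity. It was 53.5 and 53.3 in naive macrophages and 52.5 and 53.8 in the plasma cell libraries. It was 4.98 and 2.25 in TAM-NIC and 10.1 and 7.83 in TAM-IC. All 4 TAM libraries lay below both naive libraries. The group means were 3.61 ± 1.93, 8.97 ± 1.62 and 53.4 ± 0.16 (SD, n = 2 each) for TAM-NIC, TAM-IC and naive. In each of the 3 pairs the groups did not overlap (exact permutation p = 0.333 on mean log2 effective numbers, the smallest possible).

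The counts per segment showed the same split. A single segment held at least 50% of Ighv counts in TAM-NIC replicate 2 and TAM-IC replicate 2, 2 segments in TAM-NIC replicate 1 and 3 in TAM-IC replicate 1, against 13 segments in each naive library and 13 and 15 in plasma cells. Segments with a share of at least 1% numbered 7 and 2 in TAM-NIC, 10 and 12 in TAM-IC, 32 in each naive library, and 33 and 36 in plasma cells. The number of segments with at least 1 count depends on depth. It was 36 and 131 in TAM-NIC, 58 and 47 in TAM-IC, 122 and 115 in the naive libraries, and 168 and 149 in plasma cells. Drawn down to the 1658 Ighv counts of the shallowest library, these numbers were 24.7 and 59.3, 56.0 and 47.0, 99.7 and 98.6, and 93.4 and 86.7, so the TAM libraries also lay below the naive and plasma cell libraries at equal depth.

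Across all libraries, 171 of the 183 segments had at least 1 count somewhere, 16 had a count in all 8 libraries, and 12 had none. Of the 171, 26 were counted only in plasma cells and 2 only in macrophages. Of 77 segments with at least 10 counts in both naive libraries, 23 had 0 counts in both TAM-IC libraries, and 49 had 0 in TAM-NIC replicate 1. A count of 0 allows up to 3 counts, a share of 0.0668% of Ighv counts in TAM-NIC replicate 1 and of 0.158% and 0.181% in TAM-IC. These limits and the intervals below cover counting error only, since reads that carry no molecular identifier are not independent molecules.

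Each TAM library had its own leading segment or its own weight on Ighv1-26. TAM-NIC replicate 2 was led by Ighv1-26 at 88.5% of its Ighv counts (exact Clopper-Pearson 95% interval 88.3 to 88.8). TAM-IC replicate 2 was also led by Ighv1-26, at 50.8% (48.3 to 53.2). TAM-NIC replicate 1 was led by Ighv5-6 at 39.2% (37.8 to 40.7), and TAM-IC replicate 1 by Ighv8-12 at 25.4% (23.5 to 27.5). In the other libraries the leaders were smaller: Ighv1-26 at 10.4% (9.82 to 11.1) and Ighv1-22 at 8.58% (7.96 to 9.22) in naive macrophages, and Ighv11-2 at 7.58% (7.55 to 7.61) and Ighv9-3 at 5.66% (5.62 to 5.70) in plasma cells. The 5 leading segments together held 92.5% and 91.2% in TAM-NIC, 79.1% and 77.5% in TAM-IC, 27.2% and 28.4% in the naive libraries, and 27.5% and 22.7% in plasma cells. Dividing counts by exon length kept the leader of 7 libraries and moved that of plasma cell replicate 1 to Ighv3-6.

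**Figure D2:**
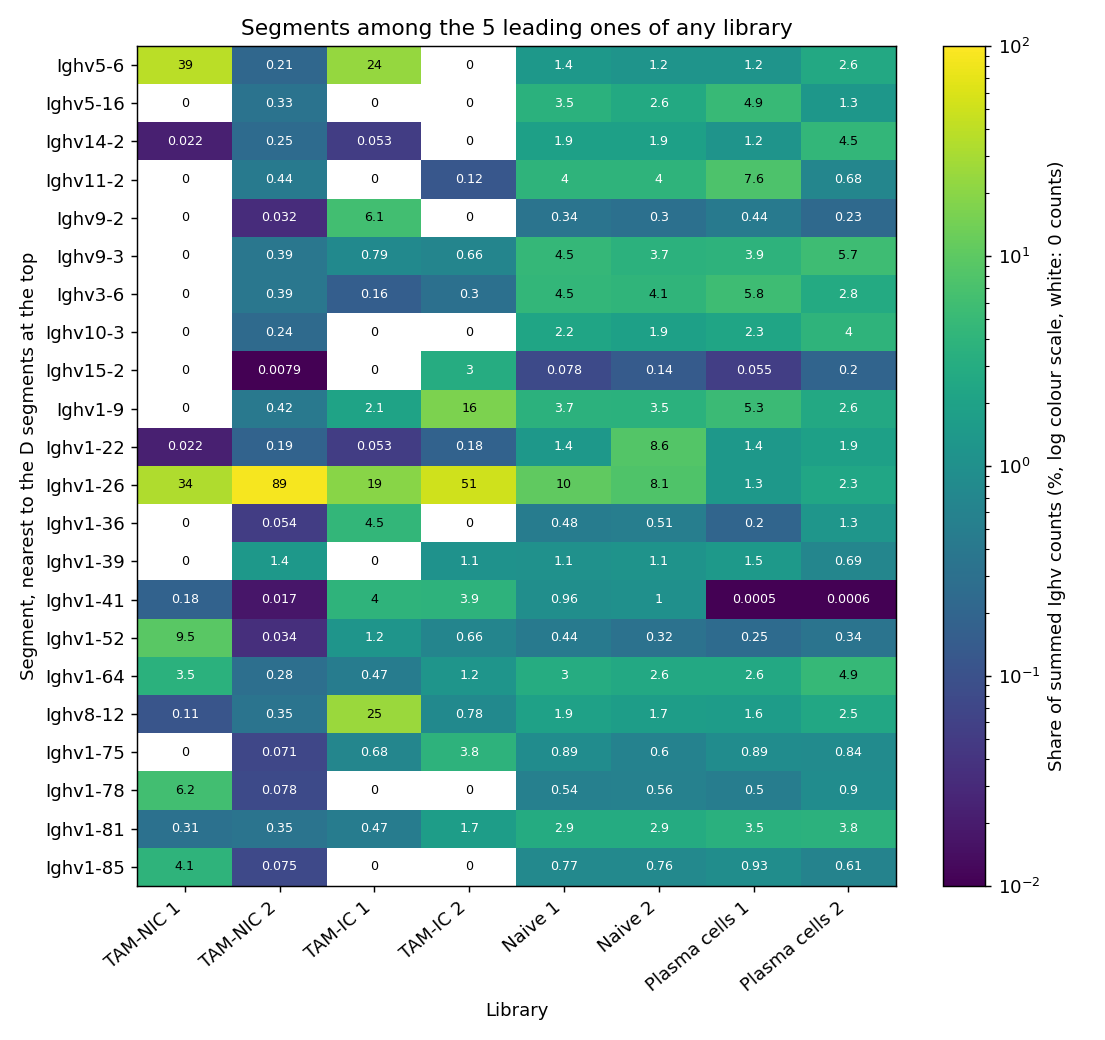
Share of summed Ighv counts (%, number in each cell and log colour scale) of every segment that was among the 5 leading ones of any library, in rows ordered along the locus from the D segments outward, with 1 column per library. White cells have 0 counts. Ighv1-26 reaches 88.5% in TAM-NIC replicate 2, Ighv5-6 is high in the 2 replicate 1 TAM libraries, and the naive and plasma cell columns spread over most rows.

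Ighv1-26 was among the 3 leading segments of each of the 6 macrophage libraries and among the 5 leading ones of neither plasma cell library. Its counts were 1506 and 67106 in TAM-NIC, 369 and 842 in TAM-IC, 939 and 627 in the naive libraries, and 35508 and 26748 in plasma cells. As levels these were 36.4 and 2161 CPM, 8.29 and 19.98 CPM, 20.03 and 21.7 CPM, and 434 and 698 CPM. As shares of Ighv counts they were 33.5% and 88.5%, 19.4% and 50.8%, 10.4% and 8.05%, and 1.34% and 2.35%. TAM-NIC replicate 2 held the highest level of all 8 libraries, plasma cells included, and the other 5 macrophage libraries lay between 0.55% and 2.24% of its count.

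The partners that complete a heavy chain transcript were also uneven. Ighj2, a joining segment, held 95.8% of J counts in TAM-NIC replicate 2. In the other 5 macrophage libraries it held 47.2% (TAM-NIC replicate 1), 29.1% and 53.5% (TAM-IC) and 36.8% and 32.7% (naive), and in plasma cells 16.6% and 27.6%. Ighg2b, the constant gene of the IgG2b heavy chain, held 95.7% of heavy constant counts in TAM-NIC replicate 2, 34.3% in replicate 1, 22.7% and 27.7% in TAM-IC, 23.7% and 19.5% in the naive libraries, and 13.4% and 12.6% in plasma cells.

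Ighv1-26 and Ighg2b counts stood at a like ratio in the macrophage libraries. Per 100 Ighg2b counts there were 4.52 and 4.18 Ighv1-26 counts in TAM-NIC, 2.86 and 5.03 in TAM-IC, and 3.46 and 3.21 in naive macrophages, while Ighg2b itself ran from 12882 to 1604338 counts. The plasma cell libraries had 0.895 and 1.83. For all other Ighv segments together the same ratio ran from 0.542 in TAM-NIC replicate 2 to 36.7 in naive replicate 2 among macrophages, and was 65.7 and 76.2 in plasma cells. The macrophage ratios therefore spanned less than a doubling for Ighv1-26 and a far wider range for the rest. These are ratios within libraries that share a sequencing table, described without a test. Summed plasma cell markers were highest among macrophages in TAM-NIC replicate 2 (5784 CPM). So was each listed marker except Mzb1, at 10.98 CPM there against 21.6 in TAM-NIC replicate 1. The part of these markers in the Ighv1-26 level was not tested.

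**Figure D3:**
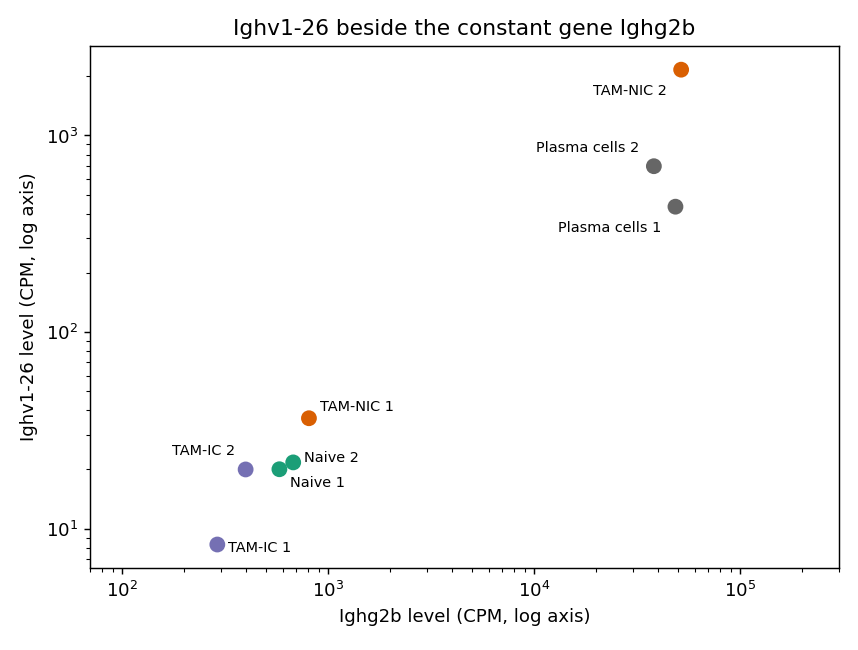
Level of Ighv1-26 against level of the constant gene Ighg2b, both in CPM on log axes, with 1 point per library coloured by group. The 6 macrophage libraries hold 2.86 to 5.03 Ighv1-26 counts per 100 Ighg2b counts, and the 2 plasma cell libraries lie lower at 0.895 and 1.83.

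Behind Ighv1-26, TAM-NIC replicate 2 held a broad repertoire. Its other 8690 Ighv counts had an effective number of 51.9 segments, against 58.6 and 55.7 in the naive libraries and 51.6 and 52.8 in plasma cells after the same removal. Their summed level, 280 CPM, lay near the 172 and 248 CPM of the naive libraries. The shares of the 182 other segments overlapped by 80.5% and 78.1% with the naive libraries and by 75.1% and 70.3% with plasma cells (the sum over segments of the smaller share). Ighv1-39 was the largest of them with 1039 counts, or 1.37% of all Ighv counts. Of the counts without Ighv1-26 it held 11.96%, against 1.18% and 1.24% in the naive libraries. It had 0 counts in TAM-NIC replicate 1, 0 and 18 in TAM-IC and 95 and 89 in naive macrophages.

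The other 3 TAM libraries stayed narrow without Ighv1-26, at effective numbers of 4.29 (TAM-NIC replicate 1) and 9.60 and 16.0 (TAM-IC). Without it they overlapped by 9.45% to 33.4% with the naive libraries, while the naive pair overlapped by 87.8% and naive replicate 1 by 85.9% with plasma cell replicate 1. The 2 plasma cell libraries overlapped by 67.3%. Naive macrophage and plasma cell libraries thus resembled each other segment by segment more than the 3 narrow TAM libraries resembled either.

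The leading segments of the replicate 1 TAM libraries were partly shared. Ighv5-6 had 1761 counts in TAM-NIC replicate 1 and 448 (23.6%, second) in TAM-IC replicate 1, but 162 (0.21%) and 0 in the replicate 2 libraries, and 122 and 92 in naive macrophages. Without Ighv1-26, these replicate 1 libraries overlapped by 33.5%, against 9.05% between the 2 libraries of TAM-NIC, 22.6% between the 2 of TAM-IC and 31.6% between the replicate 2 libraries. Other segments were high in 1 TAM library. Ighv1-52 held 9.49% of TAM-NIC replicate 1 (426 counts, with 11 to 40 counts in the other macrophage libraries). Ighv8-12 had 483 counts in TAM-IC replicate 1, against 5 and 262 in TAM-NIC, 13 in TAM-IC replicate 2 and 174 and 132 in naive macrophages. Ighv1-9 held 16.1% of TAM-IC replicate 2 (267 counts) and 0 of TAM-NIC replicate 1, against 3.75% and 3.54% in naive macrophages.

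Within the TAM-IC libraries, Ighv9-2 (6.06%) and Ighv1-36 (4.53%) completed the 5 leading segments of replicate 1, and Ighv1-75 (3.80%) and Ighv15-2 (2.96%) stood among those of replicate 2. Ighv1-78 (6.17%) and Ighv1-85 (4.05%) did so in TAM-NIC replicate 1. In naive macrophages the leaders behind Ighv1-26 were Ighv9-3, Ighv3-6, Ighv11-2 and Ighv1-9, each at 3.54% to 4.55% in the 2 libraries. All 4 were also among the 5 leading segments of plasma cell replicate 1, at 3.91% to 7.58%.

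The segment whose share differed most between the naive libraries was Ighv1-22. It had 124 counts (1.38%) in naive replicate 1 and 668 (8.58%) in naive replicate 2. It held 1 and 142 counts in TAM-NIC, 1 and 3 in TAM-IC, and 1.36% and 1.86% of the plasma cell libraries. Its V exon differs from that of Ighv1-26 at 11 positions, as printed above, and the nearest segment to Ighv1-26, Ighv1-18 with 8 differences, had 114 and 94 counts in the naive libraries and 155 in TAM-NIC replicate 2.

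The plasma cell libraries were both diverse but led by different segments. Ighv11-2, a segment known from B-1a cells that bind phosphatidylcholine, had 200244 counts (7.58%) in replicate 1 and 7765 (0.68%) in replicate 2. Ighv9-3 had 103269 (3.91%) and 64481 (5.66%), and Ighv14-2 31133 (1.18%) and 50744 (4.45%). Ighv1-64 (4.85%), Ighv10-3 (3.98%) and Ighv1-81 (3.76%) were the other leaders of replicate 2, and Ighv3-6 (5.77%), Ighv1-9 (5.32%) and Ighv5-16 (4.90%) those of replicate 1. In the macrophage table Ighv11-2 had 0 and 335 counts in TAM-NIC, 0 and 2 in TAM-IC and 357 and 308 in naive macrophages.

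Segments are grouped into 16 sequence subgroups by the number after Ighv, and subgroup shares followed the leading segments. Ighv1, with 92 segments the most numerous, held 58.1% and 94.9% in TAM-NIC, 40.6% and 89.5% in TAM-IC, 51.2% and 55.4% in the naive libraries, and 45.7% and 47.3% in plasma cells. Ighv5 (21 segments) held 40.8% and 1.41%, 23.9% and 1.39%, 12.4% and 10.5%, and 13.1% and 13.3% in the same order. Ighv8 (16 segments) reached 25.97% in TAM-IC replicate 1 and 3.44% in replicate 2, and was at 0.31% to 3.55% elsewhere. The third place went to Ighv4 (0.71%) in TAM-NIC replicate 1 and to Ighv15 (2.96%) in TAM-IC replicate 2, which each rested on 1 segment. In naive macrophages it went to Ighv9 (5.61%) and Ighv3 (5.02%), and in plasma cells to Ighv11 (7.59%) and Ighv14 (7.09%). The single Ighv16 segment had 0 counts in all 8 libraries.

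**Figure D4:**
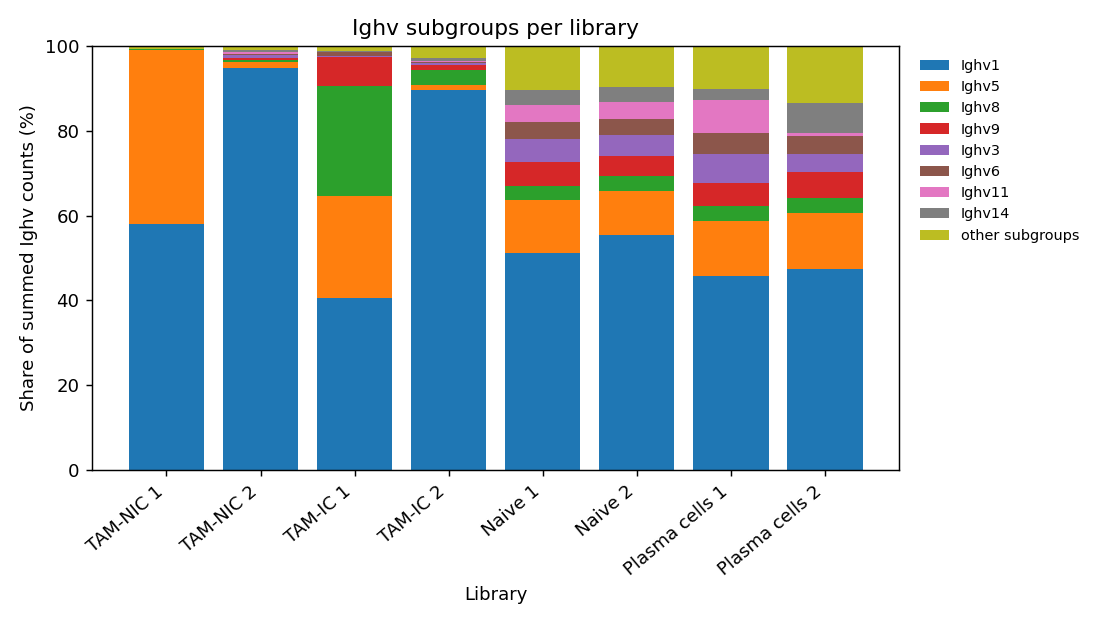
Stacked bars of the share of summed Ighv counts (%) held by each Ighv subgroup, with 1 bar per library. Subgroups Ighv2, Ighv4, Ighv7, Ighv10, Ighv12, Ighv13, Ighv15 and Ighv16 are pooled as other. The naive and plasma cell bars hold all named subgroups, while Ighv1 (58.1%) and Ighv5 (40.8%) fill nearly all of TAM-NIC replicate 1.

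Position along the locus gave a similar picture. The segments were cut into 3 blocks of 61 in their order from the D segments. In naive macrophages the nearest block held 36.7% and 32.6% of Ighv counts, the middle block 33.9% and 39.1%, and the farthest 29.4% and 28.3%, and in plasma cells these were 40.6% and 39.0%, 28.1% and 29.4%, and 31.2% and 31.6%. The middle block, where Ighv1-26 is number 106, held 92.7% of TAM-NIC replicate 2 and 77.4% of TAM-IC replicate 2. TAM-NIC replicate 1 (41.6%, 34.3% and 24.1%) and TAM-IC replicate 1 (32.4%, 33.5% and 34.1%) had counts in all 3 blocks, from a few segments in each.

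**Figure D5:**
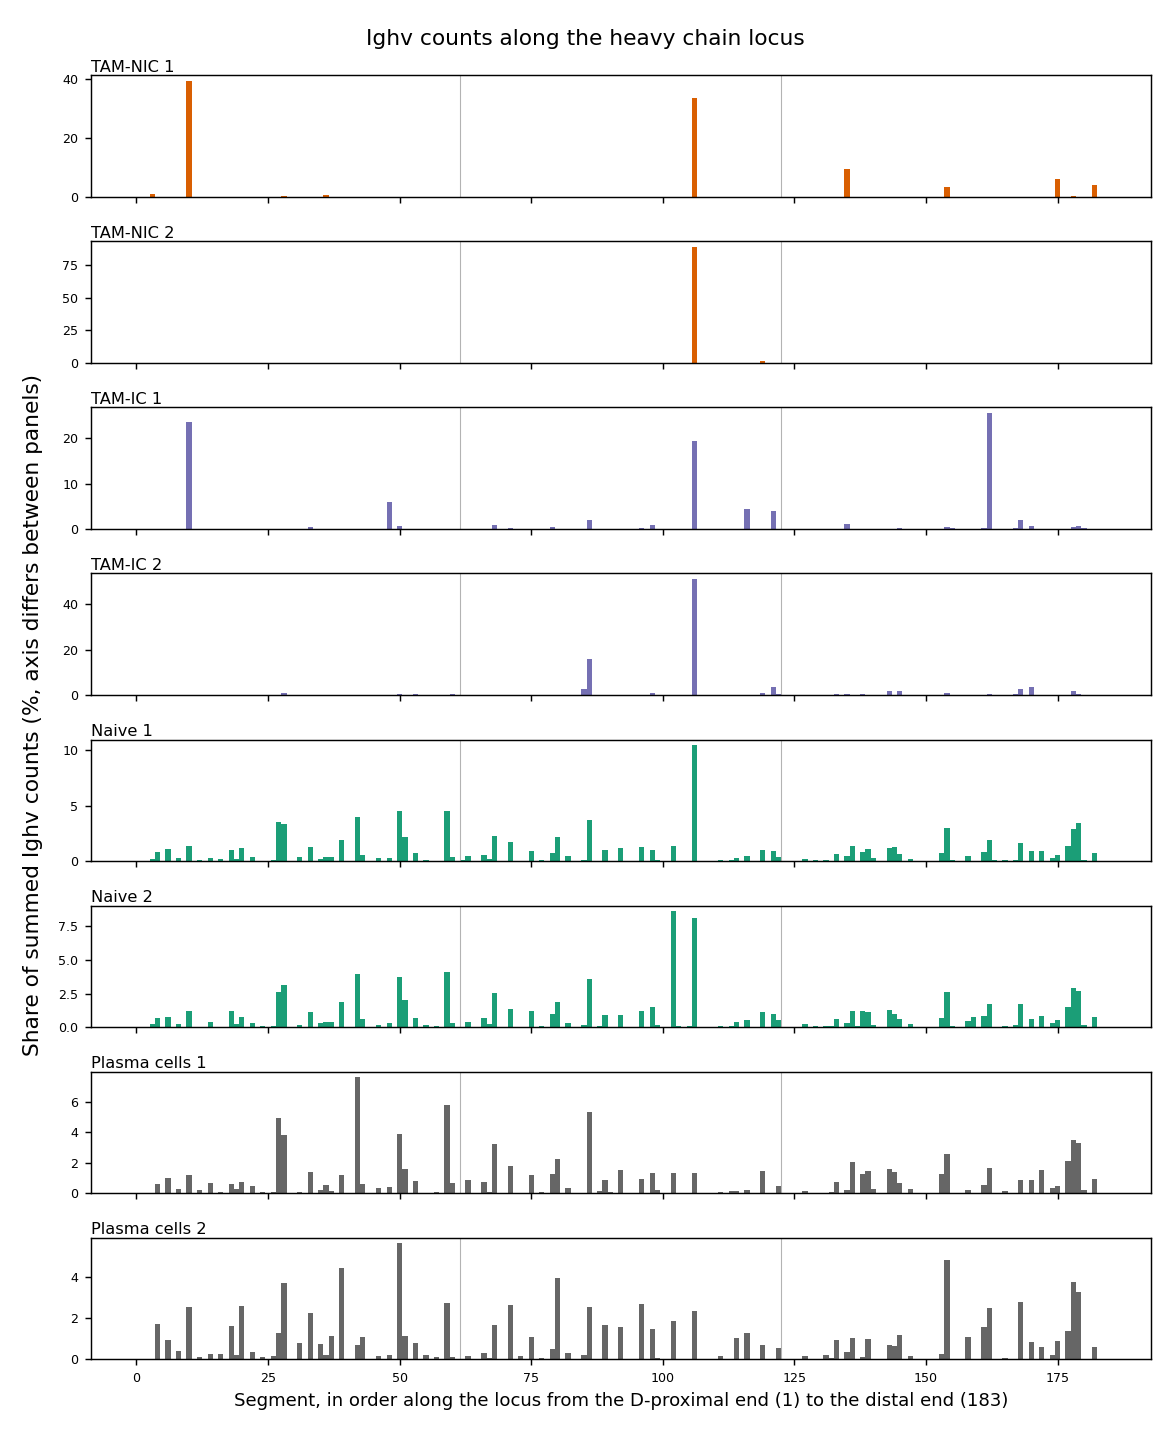
Share of summed Ighv counts (%, axis differs between panels) of each of the 183 segments in their order along the locus, from the end nearest the D segments (1) to the far end (183), with 1 panel per library and lines between the 3 blocks of 61. Naive and plasma cell panels show many low bars across the locus, and TAM panels a few tall ones, with Ighv1-26 at position 106.

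Pseudogenes, which cannot encode an antibody, held a small share everywhere, at 0.512% and 0.621% in TAM-NIC, 1.88% and 1.91% in naive macrophages, 0.808% and 0.148% in plasma cells and 5.37% in each TAM-IC library. A single one, Ighv1-41, made up most of the TAM-IC value (76 of 102 and 64 of 89 pseudogene counts). Its level was 1.71 and 1.52 CPM in TAM-IC and 1.83 and 2.73 CPM in naive macrophages, but 0.19 and 0.42 CPM in TAM-NIC and 0.17 and 0.18 CPM in plasma cells (14 and 7 counts). It was lower in plasma cells, where summed Ighv RNA was highest, than in TAM-IC and naive macrophages.

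Tested one by one across all 15522 genes that passed the filter on low counts, no segment was called between macrophage groups. Of the 183 segments 82 passed that filter, and a segment could pass through a single group in which it was high. edgeR's quasi-likelihood test with Benjamini-Hochberg adjustment called 0 of these 82 in each of the 3 comparisons at an adjusted p under 0.05. Among all genes tested it called 0% for TAM-IC over TAM-NIC, 0.219% (34 genes) for TAM-IC over naive and 0% for TAM-NIC over naive. At an unadjusted p under 0.05 the counts of segments were 25 (1 higher, 24 lower), 41 (all lower) and 2 (1 higher, 1 lower), beside 17.1%, 14.6% and 15.2% of all genes (2653, 2270 and 2354). DESeq2, which gave a p-value to 145 of the 183 segments, called 18 (1 higher, 17 lower), 20 (all lower) and 2 (1 higher, 1 lower), where it called 6.06%, 4.54% and 4.8% of all genes, and limma-voom called 0 of 82 in each. edgeR without the low-count filter called 46, 46 and 4 of 145 segments, where it called 7.2%, 5.53% and 5.96% of all genes. With the mouse number as a block in the 4 TAM libraries it called 0 of the 25 segments that passed the filter there and 0.235% of all genes for TAM-IC over TAM-NIC.

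The fitted log2 fold changes of the 82 segments had a median of -4.92 for TAM-IC over TAM-NIC (75 negative, 7 positive), of -5.32 over naive (78 negative, 4 positive), and of -0.58 for TAM-NIC over naive (67 negative, 15 positive). Over all genes the medians lay within 0.1 of 0. The log2 ratios of mean CPM, with the 26 segments at 0 in TAM-IC set to their bound, had medians of -3.99 and -4.55 in the first 2 comparisons, and of -0.68 in the last, where no segment was at 0 in a group. The first and the last of these rested on single libraries. Without TAM-NIC replicate 2 the median for TAM-IC over TAM-NIC was 1.22, with 48 of 88 tested segments positive, 18 negative and the rest at 0. TAM-NIC replicate 1, then alone in its group, had 0 counts for 147 of the 183 segments. Its summed Ighv level was still above that of TAM-IC, at 109 CPM against 42.7 and 39.4. The median for TAM-NIC over naive was -7.42 without TAM-NIC replicate 2 and 0.28 without replicate 1. The comparison of TAM-IC with naive kept a negative median without TAM-NIC replicate 2 (-5.23, with 25 of 88 segments called beside 2.92% of all genes) and without replicate 1 (-5.34, with 28 of 94 called beside 3.13%), and all calls were lower. Without replicate 1, 44 segments were called for TAM-IC over TAM-NIC, all lower, beside 8.86% of all genes, and 2 for TAM-NIC over naive, both higher, beside 2.8%. Without replicate 2 these were 0 and 12 (1 higher, 11 lower), beside 0% and 1.66%.

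Levels that did not overlap between groups were counted too. In TAM-IC 76 of the 82 segments lay below both naive libraries, where 36.7% of all genes did, and 0 lay above, where 23% did. Against TAM-NIC, 13 lay below (22.3% of all genes) and 2 above (24.4%). In TAM-NIC 12 lay below naive (28.9%) and 3 above (16.6%). The share for TAM-IC below naive, of segments that passed a filter which their naive level could satisfy alone, is a description.

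The segments with the smallest p are named with their counts. Ighv1-85 had 182 and 57 counts in TAM-NIC, 0 and 0 in TAM-IC and 69 and 59 in naive macrophages. Its level was at least 90.0-fold lower in TAM-IC than in TAM-NIC (edgeR adjusted p = 0.119) and at least 50.7-fold lower than in naive (adjusted p = 0.100), taking 3 counts over the group as the floor. Ighv1-78 had 277 and 59, 0 and 0, and 49 and 44 counts, at least 124-fold and 37.1-fold lower in TAM-IC (adjusted p = 0.119 and 0.132). Both are among the farthest segments from the D segments, number 182 and 175.

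Ighv1-64 had 159 and 216 counts in TAM-NIC, 9 and 20 in TAM-IC, and 268 and 202 in naive macrophages. Its log2 fold change in TAM-IC was -3.95 ± 0.69 (SE) over TAM-NIC (edgeR adjusted p = 0.133) and -4.05 ± 0.69 over naive (adjusted p = 0.104). In TAM-NIC replicate 1, where 147 segments had 0 counts, it stood at 3.84 CPM. The fold change of Ighv1-26 was -6.22 ± 1.80 for TAM-IC over TAM-NIC (adjusted p = 0.205), 5.83 ± 1.77 for TAM-NIC over naive (adjusted p = 0.245) and -0.39 for TAM-IC over naive (adjusted p = 0.919). The first value was -1.39 and the second 0.97 without TAM-NIC replicate 2. Without TAM-NIC replicate 1 they were -7.19 and 6.77. Each of these fits leaves TAM-NIC with 1 library. The third turned to 0.14 without TAM-IC replicate 1. For TAM-NIC over naive the other 2 segments with the smallest p were Ighv1-41, at -2.77 ± 0.75 (adjusted p = 0.233), and Ighv1-52, at 2.86 ± 1.19 (adjusted p = 0.337), which was 0.04 without TAM-NIC replicate 1.

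The constant genes, to which a joined V segment is spliced, differed in class between libraries. Ighm (IgM) held 64.6% of heavy constant counts in TAM-NIC replicate 1 and 75.9% and 69.2% in TAM-IC, but 1.36% in TAM-NIC replicate 2, 35.8% and 38.8% in the naive libraries and 30.7% and 13.3% in plasma cells. Igha (IgA) held 29.7% and 31.3% in the naive libraries and 40.03% and 61.7% in plasma cells, against 0.061% and 2.15% in TAM-NIC and 0.04% and 2.37% in TAM-IC. By share of constant counts, the 3 narrow TAM libraries were thus mainly Ighm and Ighg2b with little Igha. The Ighm level itself was 970 and 993 CPM in TAM-IC, against 877 and 1343 CPM in naive macrophages, and 1518 CPM in TAM-NIC replicate 1. Igha stood at 0.52 and 34.0 CPM in TAM-IC against 726 and 1083 CPM in naive macrophages. The higher Ighm share in TAM-IC therefore went with lower levels of other classes. Whether Ighm counts came with a joined V segment was not tested.

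For the gene lists that follow, the shares of all genes to set beside each count are 17.1%, 14.6% and 15.2% at an unadjusted edgeR p under 0.05, and 6.06%, 4.54% and 4.8% called by DESeq2, in the order TAM-IC over TAM-NIC, TAM-IC over naive and TAM-NIC over naive. Of the 7 constant genes tested (of 8), edgeR called 0 in each comparison, with 4, 4 and 2 at an unadjusted p under 0.05, and DESeq2 called 4 lower, 4 lower, and 1 higher with 1 lower. Ighd, of the IgD of mature naive B cells, stood at 4.26 and 5.57 CPM in TAM-NIC, 7.78 and 5.29 in TAM-IC and 41.3 and 67.1 in naive macrophages. Its log2 fold change was -2.90 ± 0.37 for TAM-IC over naive (edgeR adjusted p = 0.0666) and -3.33 ± 0.38 for TAM-NIC over naive (adjusted p = 0.183). Both TAM groups lay below both naive libraries for this gene, also in TAM-NIC replicate 2, whose summed Ighv level was highest among macrophages.

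Of the 4 joining segments edgeR called 0 in each comparison (3, 2 and 1 at an unadjusted p under 0.05), and DESeq2 called 3 lower, 2 lower and 0. Among 12 genes of V(D)J recombination edgeR called 0 in each (1, 2 and 3 unadjusted), and DESeq2 called 1 higher, 1 lower and 1 lower. The recombinase genes were low throughout: Rag1 stood at 0.02 and 0 CPM in TAM-NIC, 0.45 and 0.05 in TAM-IC, and 1.24 and 3.50 in naive macrophages. Dntt, which adds bases at the joints, stood at 0.46 and 6.73, 2.76 and 3.13, and 19.8 and 24.3 CPM.

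Among 7 tested genes (of 8) of the pre-B cell receptor, the receptor that tests a newly joined heavy chain, edgeR called 0 in each comparison (5, 6 and 4 unadjusted). DESeq2 called 2 higher and 2 lower, 6 lower, and 4 lower. Igll1, of the surrogate light chain, stood at 0.36 and 0.77 CPM in TAM-NIC, 2.85 and 1.52 in TAM-IC and 18.5 and 20.98 in naive macrophages. Among 8 regulators of the locus, such as Pax5 and Ebf1, edgeR called 0 in each (0, 2 and 3 unadjusted) and DESeq2 0, 2 lower and 2 lower. Among 8 genes of antibody secretion edgeR called 0 in each (6, 1 and 5 unadjusted), and DESeq2 called 5 lower, 1 lower and 3 higher. Jchain, which joins IgM and IgA units, stood at 104 and 3500 CPM in TAM-NIC, 23.5 and 54.6 in TAM-IC, and 335 and 450 in naive macrophages.

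Markers of the B lineage were summed in the same libraries, and did not all follow the Ighv sum. The sum of 8 mature B cell markers, such as Ms4a1 (CD20) and Cd79a, was 255 and 218 CPM in TAM-NIC, 130.4 and 142 in TAM-IC, 467 and 533 in the naive libraries, and 924 and 646 in plasma cells, with Cr2 at 0 in TAM-NIC replicate 1 and all 8 detected in the others. The sum of 9 pre-B and pro-B markers was 90.5 and 35.9, 76.6 and 36.3, 106 and 133, and 49.7 and 45.6 CPM, with Vpreb2 at 0 in both TAM-NIC and both plasma cell libraries and Rag1 at 0 in TAM-NIC replicate 2. TAM-NIC replicate 2 had the highest Ighv level among macrophages and the lowest pre-B and pro-B sum of the 8 libraries. Its mature B cell sum was also below that of TAM-NIC replicate 1. A few genes carried these sums: Cd93 (76.2 and 17.4 CPM in TAM-NIC), Cd79b (137 and 129) and Cd22 (103 and 53.2). Cd93, Il7r, Rag1, Cd79b, Cd22 and Pax5 were lower in TAM-NIC replicate 2 than in replicate 1. Dntt, Ebf1, Rag2, Igll1, Vpreb1, Fcer2a, Cr2, Ighd, Ms4a1 (2.68 and 7.67 CPM) and Cd79a (6.21 and 15.98) were higher there. edgeR called 0 of the 10 plasma cell markers in each comparison (6, 2 and 7 unadjusted), 0 of the 8 mature B cell markers (1, 6 and 5), 0 of the 8 tested pre-B and pro-B markers (2, 5 and 5) and 0 of the 10 macrophage markers (5, 2 and 0). Against the same shares of all genes (17.1%, 14.6% and 15.2% unadjusted, 6.06%, 4.54% and 4.8% by DESeq2), DESeq2 called 6 lower, 1 higher with 1 lower, and 6 higher plasma cell markers in the 3 comparisons, 1, 6 and 5 mature B cell markers (all lower), 2 higher, 4 lower and 4 lower pre-B and pro-B markers, and 1 higher with 4 lower, 2 lower and 0 macrophage markers. Their part in the Ighv results was not tested.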

How the data were processed

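Per the labels' protocols, RNA of 6 macrophage and 2 plasma cell samples went into SMART-Seq v4 Ultra Low Input libraries, which cover whole transcripts without strand information. Deposited values are raw counts per gene. Tools named in the submitters' processing notes are STAR, featureCounts and DESeq2 1.26, with builds mm10 and GRCm38. No source used here gives the strand setting, the multi-mapping treatment or the annotation release. Unmarked reads of antisense or overlapping genes, and reads shared by close segments, cannot be assigned with certainty.

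Identifiers of the macrophage table were matched without version to GENCODE M21 (47224 of 47643). Of the plasma cell symbols 48081 of 52458 were found, and 0 columns were left without a sample. The 183 members have 185 identifiers, since Ighv5-8 and Ighv1-13 each have a second identifier on the opposite strand with 0 counts in the macrophage table, and counts were summed by symbol. CPM uses the library total. Shares are percentages of summed Ighv counts. Library totals and limits for a count of 0 are given in the results.

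Tests used R 4.3.3, edgeR 4.0.16 (TMM, filterByExpr with minimum count 10 and minimum total 15, a group term over 6 libraries, 3 residual degrees of freedom, default quasi-dispersions), limma 3.58.1 and DESeq2 1.42.0, and Python 3.11.15 (scipy 1.17.1, pandas 2.3.3, numpy 2.4.6, matplotlib 3.10.9). Genes were called at an adjusted p under 0.05. Values given as SE of a log2 fold change were worked back from the test, as its absolute value divided by the square root of the quasi-likelihood F. Plasma cells come from a separate table and enter no test. Only the edgeR fit was tried on simulated counts. Replicates differed by far more than sampling noise (chi-square per degree of freedom 164 to 805). Fold bounds use a floor of 3 counts over a group.

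The text names the 5 leading segments of each library, the 3 largest subgroups per library and, as none were called, the 3 segments with the smallest p per comparison. Single genes of the other lists, Ighv1-18, and Ighv1-62-2 with Ighv1-71 were picked for the text after their values were seen. The members and lists were chosen with earlier results of these data known. A marker of the mature B cell list is not reported here and was left out of that list. Alternatives tried were RLE size factors, DESeq2, limma-voom, no low-count filter, library sizes without immunoglobulin counts, bias-adjusted quasi-dispersions, each library left out, a block by mouse number, and other indices or subsets of segments.

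TAM samples carry a mouse number in the labels, and deviations of equally numbered samples from their group means correlated at 0.178 over genes. The Y-linked gene Ddx3y stood at 0.258 CPM in TAM-NIC replicate 2 and 88.4 in TAM-IC replicate 2, and Xist at 40.4 and 0. These libraries do not look like 1 animal, and samples were not taken as paired. In TAM-IC replicate 1 Ddx3y was at 0 CPM and Xist at 17.5, so the TAM-IC replicates also differ in sex-linked genes. Ddx3y was at 23.3 and 15.6 CPM in plasma cells and 0.235 and 0.138 in naive macrophages. Xist was at 0.196 and 0.313 CPM in plasma cells and 53.8 and 37.4 in naive macrophages.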

Additional observations from a re-analysis of the deposited data

How the results depend on the processing

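The count of segments called depended on the setting. For TAM-IC over TAM-NIC, TAM-IC over naive and TAM-NIC over naive, 0 of 82 segments were called by edgeR with the filter. In the same order, DESeq2 called 18, 20 and 2 of 145 segments, beside 6.06%, 4.54% and 4.8% of all genes. Without a low-count filter edgeR called 46, 46 and 4 of 145 segments, beside 7.2%, 5.53% and 5.96% of all genes. Leaving out 1 library gave 0 to 44, 0 to 28 and 0 to 12. Calls appeared without TAM-NIC replicate 1 (44, 28 and 2) and without TAM-NIC replicate 2 (0, 25 and 12), and 0 without each other library. RLE size factors, limma-voom, bias-adjusted quasi-dispersions and library sizes without immunoglobulin counts gave 0 in each comparison. Each fit without 1 library leaves a group resting on 1 library, so the calls of those fits are not given. The cause of the dependence on the setting was not tested. The block by mouse number, fitted to the 4 TAM libraries, called 0 of the 25 segments it tested. The mean of within-number log2 differences in summed Ighv level was -3.65. This is another statistic than the -4.96 below, which is a log2 ratio of mean CPM, and it is the same for any pairing of these libraries. The gap between the values therefore does not measure the block. The numbers are not shown to pair animals. The summed level for TAM-IC over TAM-NIC was -1.40 in place of -4.96 without TAM-NIC replicate 2, and for TAM-NIC over naive it turned from 2.47 to -1.09 without replicate 2 of TAM-NIC (range over left-out libraries -1.09 to 3.40), and to -0.25 without Ighv1-26, an alternative chosen after seeing the data. Ighv1-26 for TAM-IC over naive turned from -0.39 to 0.14 without TAM-IC replicate 1 (range over left-out libraries -1.22 to 0.14).

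Diversity values moved with the index. Effective numbers and inverse Simpson indices of naive and plasma cell libraries stayed above those of all TAM libraries except where Ighv1-26 was left out, but TAM-NIC replicate 2 had more detected segments (131) than the naive libraries (122 and 115). The inverse Simpson index was 5.98 and 3.44 in TAM-IC, 33.6 and 33.8 in the naive libraries, and 35.8 and 40.9 in plasma cells. With segments of at least 10 counts alone the effective number was 7.05 and 5.63 in TAM-IC and 49.4 and 49.5 in naive macrophages. With functional segments alone it was 50.6 and 50.5 in naive macrophages and 50.6 in plasma cell replicate 1, and with counts divided by exon length 53.4, 52.9 and 53.4. Without Ighv1-26 it was 51.9 in TAM-NIC replicate 2, 16.0 in TAM-IC replicate 2, 58.6 and 55.7 in the naive libraries, and 51.6 and 52.8 in plasma cells. The leading share of plasma cell replicate 1 was 6.12% per exon length. Detected segments with at least 10 counts numbered 10 and 82 in TAM-NIC, 15 and 18 in TAM-IC and 81 in naive replicate 1, and at equal depth 59.3 in TAM-NIC replicate 2 and 93.4 and 86.7 in plasma cells. Depth limits rare segments in TAM-IC, where a single count is a larger share than in plasma cells.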
